A study of Mus musculus with 6 samples.

Results

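The EGF, HGF and FGF receptors of hepatocytes were followed here as 8 genes named by symbol, the ErbB receptor genes Egfr, Erbb2 and Erbb3, the receptor inhibitor gene Errfi1, the HGF receptor gene Met, the FGF receptor gene Fgfr4 with its coreceptor gene Klb, and the cytokine receptor gene Lifr. Of these 8 genes, 7 had a row among the 10960 genes of the deposited expression table, and all 7 passed the filter on low values, a mean of at least 0.5 RPKM (reads scaled by transcript length and library size). Erbb2 was not analysed here. The samples were frozen livers taken at 8 weeks of age from males of the inbred mouse strain C57BL/6J. The refed group, libraries 5, 7 and 8, was fasted for 12 h from 10 am and then ate a diet with 69% sucrose and 10% fat for 12 h from 10 pm. The fasted group, libraries 1, 3 and 4, went without food for 12 h from 10 pm. All livers were collected at 10 am, and every mouse had therefore been through a 12 h fast. Each group had 3 libraries.

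ErbB receptors bind ligands of the EGF and neuregulin families outside the cell, pair with each other and phosphorylate their own tails, which recruit the adaptors of the Ras and ERK pathway. The product of Erbb3 has little kinase activity of its own and signals through its partners, and the product of Errfi1, also called MIG6, binds the active EGFR kinase and blocks it. MET binds HGF and drives growth and survival of hepatocytes in the regenerating liver. FGFR4 with beta-klotho, the product of Klb, receives the gut hormone FGF15 in mice, FGF19 in humans, which represses bile acid synthesis, and beta-klotho is also the coreceptor of FGF21. The LIF receptor pairs with the product of Il6st to activate JAK and STAT3.

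A pair of RefSeq transcripts was listed for Egfr and for Lifr, and in both genes the shorter one had the higher mean RPKM and was the one kept for the gene. The shorter Egfr transcript, NM_007912, encodes a truncated protein without the membrane-spanning and kinase parts, and the shorter Lifr transcript, NM_001113386, encodes the soluble receptor known from mouse serum. In the GENCODE M21 models matched by accession (GRCm38, plus strand), the Egfr transcripts share their first 1925 coding bases and then part, with 40 further coding bases in NM_007912 and 1705 in NM_207655, so that they hold 655 and 1210 codons. The Lifr transcripts share 2152 coding bases, with 5 further coding bases in NM_001113386 and 1124 in NM_013584, for 719 and 1092 codons. The point where the coding sequences part is shown because the results below differ between these transcripts. Lower case marks the last 30 shared coding bases, and capitals mark the coding bases that follow in that transcript alone, at most 60 of them.
Egfr NM_007912: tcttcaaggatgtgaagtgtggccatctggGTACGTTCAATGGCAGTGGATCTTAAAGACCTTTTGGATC
Egfr NM_207655: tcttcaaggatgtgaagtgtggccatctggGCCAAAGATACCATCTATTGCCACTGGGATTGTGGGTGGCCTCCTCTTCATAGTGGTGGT
Lifr NM_001113386: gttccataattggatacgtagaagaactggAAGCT
Lifr NM_013584: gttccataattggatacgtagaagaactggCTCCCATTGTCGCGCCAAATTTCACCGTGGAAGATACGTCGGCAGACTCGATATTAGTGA

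In the GENCODE M21 models the shared exons make up 74.7% of the bases of NM_007912 and 21.5% of NM_207655. For Lifr they make up 76.4% of NM_001113386 and 64.1% of NM_013584. The model matched to NM_013584 has 52 bases after its coding part and is shorter than the RefSeq transcript. The 64.1% therefore describes the model only. The sources used here do not say whether a read in a shared exon counted for both transcripts, so the RPKM of the transcripts of a gene are not independent.

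In refed liver 1 of the 7 measured genes was higher, Egfr, and 4 were lower, Erbb3, Met, Klb and Lifr, while Errfi1 and Fgfr4 did not pass. The test was limma on log2(RPKM + 1) with Benjamini-Hochberg adjustment over 10903 genes at a threshold of 0.05. Of all genes tested 42.2% were called, 26.4% higher and 15.8% lower in refed liver. The groups did not overlap for 5 of the 7 measured genes, beside 6041 of the 10903 genes tested, so that such separation was common. The median log2 fold change was -0.36 over the 7 measured genes, which is the value of Lifr, beside 0.10 over all genes tested. Lifr was called by its shorter transcript. With the longer transcripts of Egfr and Lifr in place, Lifr was not called (limma adjusted p = 0.62) and 3 genes were lower. Centring each library on its own median turned the split of all calls from 62.6% to 49.1% higher in refed liver, quantile normalization to 48.6% and TMM to 48.1%, and each of the 7 genes kept its direction under the 3 other scalings tried. In bulk tissue, fewer cells of a type and less RNA per cell cannot be told apart.

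Depth is known in part. Reads in the genes that the authors called summed to between 26237934 and 33219013 per library. The hepatocyte markers were high in every library, with a summed level of 44870 to 47960 RPKM in refed and 44110 to 52190 RPKM in fasted liver over 10 genes, and 4 of the 10 were lower, 1 higher. Fasted 1 stood apart in Kupffer cell markers, whose sum over 10 genes was 102 to 113 RPKM in refed liver and 174.5, 60.5 and 93.8 RPKM in fasted 1, 3 and 4. None of these 10 genes was called by limma, and 0 had an unadjusted p under 0.05. The sums of 10 sinusoidal endothelial markers did not overlap, at 68.0 to 75.9 RPKM in refed and 56.7 to 65.8 RPKM in fasted liver, with 2 called higher. Of 6 measured cholangiocyte markers 3 were higher, 2 of which reached 1 RPKM only in refed libraries, while their sums overlapped at 28.7 to 37.4 RPKM in refed and 25.6 to 34.7 RPKM in fasted liver. Stellate sums overlapped at 68.7 to 87.2 RPKM in refed and 49.8 to 94.6 RPKM in fasted liver, with 1 of 9 genes higher, and the 2 measured neutrophil genes summed to 0.954 to 3.62 RPKM in refed and 0.326 to 3.82 RPKM in fasted liver, with none called and 0 at an unadjusted p under 0.05. No measured marker was listed at 0 in any library, and the 10 lymphocyte markers were not analysed here. The part of these cell types in the receptor results was not tested.

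**Figure D1:**
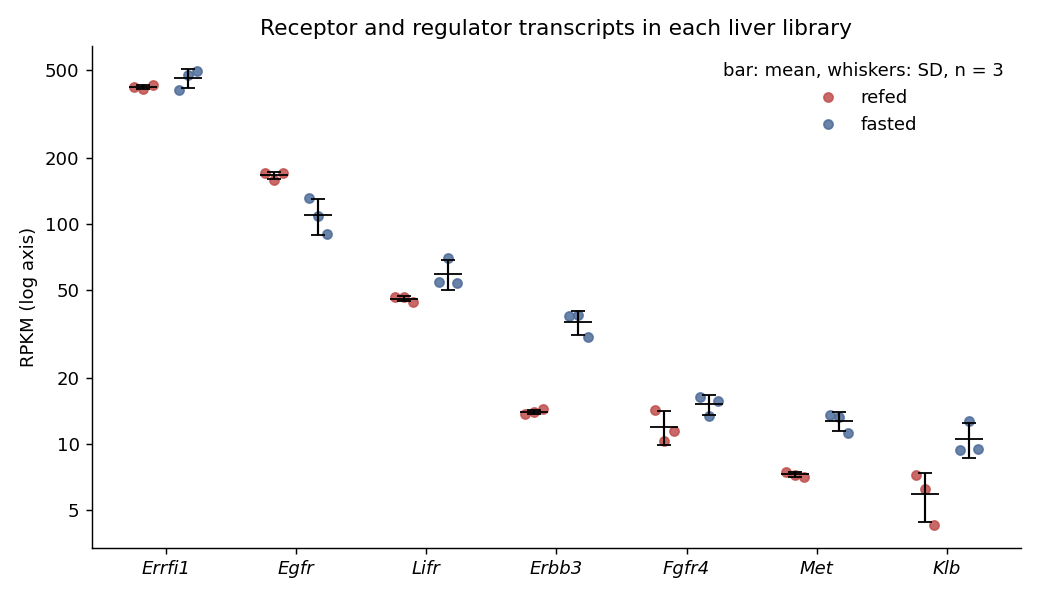
RPKM of the 7 measured genes in each library, by the transcript with the highest mean, on a log axis. Points are libraries, horizontal bars are means and whiskers are SD over 3 libraries, with refed left of fasted for each gene. With these transcripts the order from Errfi1 down to Klb is the same in both groups. The refed points lie above the fasted points for Egfr and below them for Lifr, Erbb3, Met and Klb. Groups without overlap were found for 6041 of the 10903 genes tested.

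By the transcript kept for each gene, the order of the mean levels was the same in refed and in fasted liver. Errfi1 was highest, then Egfr, Lifr, Erbb3, Fgfr4, Met and Klb. Lifr is placed here by its shorter transcript, of the soluble receptor. Its longer transcript, at 22.2 RPKM in refed and 23.6 RPKM in fasted liver, changed places with Erbb3. Erbb3 lay below it in refed liver (14.0 RPKM) and above it in fasted liver (35.8 RPKM). RPKM is scaled by transcript length, so that these levels can be compared between genes. Errfi1 stood at the 98.8th percentile of all genes tested in both groups, and Egfr at the 96.5th in refed and the 94.9th in fasted liver. In refed liver the libraries of Erbb3 and Fgfr4 overlapped, as did those of Met and Klb. In fasted liver those of Fgfr4 and Met overlapped, and those of Met and Klb, while Erbb3 lay above Fgfr4 in every library.

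Egfr, whose product binds EGF, TGF-alpha and other ligands of that family, was higher in refed liver. Its shorter transcript had 170, 159 and 170 RPKM in refed 5, 7 and 8, against 131, 108 and 90.4 RPKM in fasted 1, 3 and 4. Every refed library lay above every fasted one, and fasted 1 was the nearest to them. The mean was 166 ± 6.60 RPKM in refed and 110 ± 20.3 RPKM in fasted liver (SD, n = 3 each), a log2 fold change of 0.61 ± 0.13 SE (limma adjusted p = 0.008). The longer transcript, which encodes the whole receptor, had 152, 154 and 157 RPKM in refed 5, 7 and 8, against 86.2, 67.3 and 60.4 RPKM in fasted 1, 3 and 4. Its means of 154 ± 2.93 RPKM in refed and 71.3 ± 13.4 RPKM in fasted liver (SD, n = 3 each) differed by a log2 fold change of 1.12 ± 0.13 SE (limma adjusted p = 0.00045). As reads in shared exons may count for both Egfr transcripts, neither value need stand for its own form alone. The authors' deposited table places Egfr in mm9 at chr11:16652206-16818161 on the plus strand, an interval that spans exons and introns. It lists 71622, 84646 and 70497 reads in refed 5, 7 and 8, against 36455, 28244 and 24786 reads in fasted 1, 3 and 4, with a log2 fold change of 1.13.

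Erbb3, the neuregulin receptor that relies on the kinase of its partners, had the largest fall of the 7 genes. It had 13.7, 13.9 and 14.4 RPKM in refed 5, 7 and 8, against 38.3, 38.6 and 30.6 RPKM in fasted 1, 3 and 4. The refed libraries lay within a narrow range, and none came near the fasted ones. The mean was 14.0 ± 0.338 RPKM in refed and 35.8 ± 4.57 RPKM in fasted liver (SD, n = 3 each), a log2 fold change of -1.29 ± 0.10 SE (limma adjusted p = 8.6e-05). Among all genes tested Erbb3 stood at the 69.0th percentile of level in refed and the 86.1th in fasted liver. The authors' deposited table places it at chr10:128004579-128026708 on the minus strand in mm9 and gives a log2 fold change of -1.45.

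Errfi1, the feedback inhibitor of the ErbB receptors, was the most abundant of the 7 genes. It had 421, 411 and 429 RPKM in refed 5, 7 and 8, against 408, 478 and 497 RPKM in fasted 1, 3 and 4. The groups overlapped because fasted 1 lay below all refed libraries. The log2 fold change was -0.13 ± 0.10 SE with a 95% interval from -0.36 to 0.10 (limma adjusted p = 0.33), and no setting tried here called it. The authors' deposited table, made from counts, lists Errfi1 among its calls with a log2 fold change of -0.35 and a false discovery rate of 0.013.

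The levels of these genes relative to Egfr in the same library shifted, and a factor common to a library cancels in such a ratio. The Erbb3 to Egfr ratio was 0.0804, 0.0877 and 0.0844 in refed 5, 7 and 8, against 0.293, 0.356 and 0.338 in fasted 1, 3 and 4, a difference of -1.96 on the log2 scale. The Errfi1 to Egfr ratio was 2.47, 2.59 and 2.52 in refed 5, 7 and 8, against 3.12, 4.41 and 5.51 in fasted 1, 3 and 4, a log2 difference of -0.74. All refed ratios lay below all fasted ones in both cases. For Erbb3 this order and its p were fixed by the results above, since every refed library was lower in Erbb3 and higher in Egfr. They are no further support. The exact two-sided permutation test gave p = 0.1 for each, the smallest that 3 against 3 libraries allow, and 0.125 after Benjamini-Hochberg adjustment over the 5 ratios computed. With the longer Egfr transcript in place of the shorter, a choice made after seeing the data, the log2 differences were -2.48 for Erbb3 and -1.26 for Errfi1.

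Met, the HGF receptor gene, was lower in refed liver. It had 7.49, 7.24 and 7.08 RPKM in refed 5, 7 and 8, against 13.6, 13.3 and 11.3 RPKM in fasted 1, 3 and 4. The groups did not overlap, and the refed libraries differed little among themselves. The mean was 7.27 ± 0.205 RPKM in refed and 12.7 ± 1.26 RPKM in fasted liver (SD, n = 3 each), a log2 fold change of -0.72 ± 0.09 SE (limma adjusted p = 0.00071). The Met to Egfr ratio was 0.0437 ± 0.00198 in refed and 0.117 ± 0.0115 in fasted liver (SD, n = 3 each; exact permutation p = 0.1, adjusted p = 0.125). Every refed library was lower in Met and higher in Egfr, so that this exact p was fixed and is no further support. The authors' deposited table places Met at chr6:17413800-17523980 on the plus strand in mm9.

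Klb, the gene of the coreceptor beta-klotho, was lower in refed liver. It had 7.22, 6.25 and 4.29 RPKM in refed 5, 7 and 8, against 9.36, 12.8 and 9.49 RPKM in fasted 1, 3 and 4. The groups did not overlap, with refed 8 lowest and fasted 3 highest. The mean was 5.92 ± 1.5 RPKM in refed and 10.5 ± 1.92 RPKM in fasted liver (SD, n = 3 each), a log2 fold change of -0.75 ± 0.18 SE (limma adjusted p = 0.012). It rested on 1571, 1523 and 867 reads in refed 5, 7 and 8, against 1869, 2607 and 1861 reads in fasted 1, 3 and 4, in the authors' deposited table, which places Klb at chr5:65739625-65775242 on the plus strand in mm9.

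Fgfr4, the receptor of FGF15 that signals with beta-klotho, did not pass. It had 14.3, 10.3 and 11.4 RPKM in refed 5, 7 and 8, against 16.4, 13.4 and 15.8 RPKM in fasted 1, 3 and 4. The groups overlapped, since refed 5 lay above fasted 3. The log2 fold change was -0.32 ± 0.13 SE with an unadjusted 95% interval from -0.62 to -0.02 (limma adjusted p = 0.081). It passed under each of the 3 other scalings, at -0.41 with centring (adjusted p = 0.04), -0.42 with quantile normalization (0.037) and -0.43 with TMM (0.036), and without refed 5 (-0.45, adjusted p = 0.029). The authors' deposited table lists Fgfr4 at chr13:55254001-55270120 on the plus strand in mm9, with a log2 fold change of -0.44 and a false discovery rate of 0.015. The Klb to Fgfr4 ratio overlapped between the groups, at 0.496 ± 0.117 in refed and 0.709 ± 0.211 in fasted liver (SD, n = 3 each; exact permutation p = 0.3, adjusted p = 0.3).

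Lifr, the LIF receptor gene, gave different results for its transcripts. Reads in the exons that they share may count for both, so that neither value need stand for its own receptor form alone. The shorter transcript, of the soluble receptor, had 46.6, 46.5 and 44.2 RPKM in refed 5, 7 and 8, against 54.5, 70.4 and 53.8 RPKM in fasted 1, 3 and 4. The groups did not overlap, and fasted 3 lay apart above the rest. Its log2 fold change was -0.36 ± 0.11 SE (limma adjusted p = 0.034), and the call was lost when any of 4 libraries was left out, with adjusted p of 0.076 without fasted 3, 0.081 without refed 5, 0.069 without refed 7 and 0.094 without refed 8. Without fasted 3 the log2 fold change was -0.24. The authors' deposited table of calls, made from counts, lists the other 6 measured genes and has no row named Lifr. The longer transcript, of the membrane receptor, had 24.0, 22.9 and 19.6 RPKM in refed 5, 7 and 8, against 22.3, 27.2 and 21.2 RPKM in fasted 1, 3 and 4. These groups overlapped, and the log2 fold change was -0.080 ± 0.12 SE with a 95% interval from -0.36 to 0.19 (limma adjusted p = 0.62). Il6st, the gene of the shared signalling subunit, had 18.4, 16.8 and 22.0 RPKM in refed 5, 7 and 8, against 18.3, 20.3 and 17.2 RPKM in fasted 1, 3 and 4 (log2 fold change 0.03 ± 0.11 SE, limma adjusted p = 0.85). The ratio of Lifr, by its shorter transcript, to Il6st was 2.43 ± 0.386 in refed and 3.19 ± 0.256 in fasted liver (SD, n = 3 each; exact permutation p = 0.1, adjusted p = 0.125), and with the longer transcript the exact p was 0.9.

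**Figure D2:**
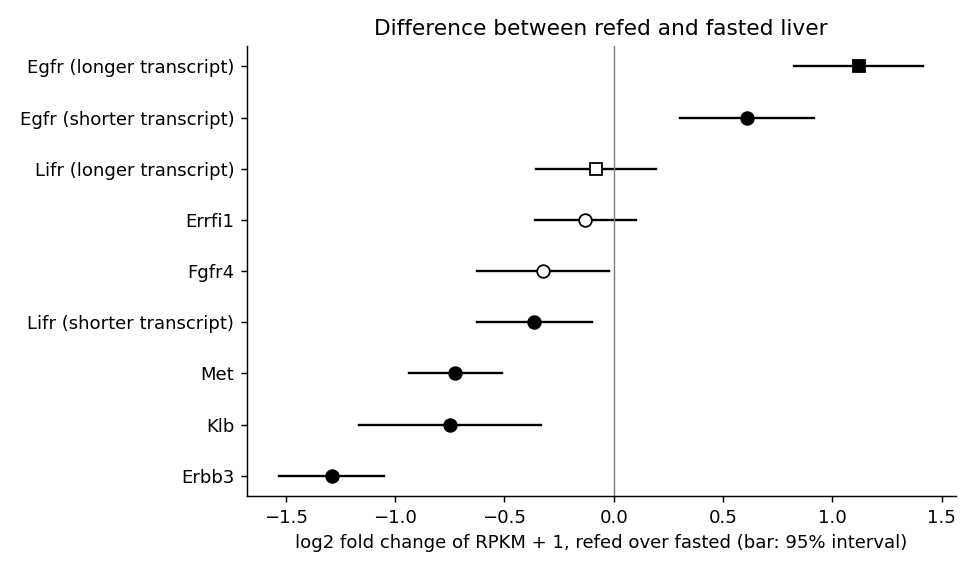
Log2 fold changes of RPKM + 1 in refed over fasted liver, with 95% intervals from limma, for the 7 measured genes and for the longer transcripts of Egfr and Lifr (squares). Filled symbols passed an adjusted p of 0.05. Both Egfr transcripts lie to the right of 0, at 0.61 and 1.12, and Erbb3 lies farthest to the left at -1.29.

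The ratio between the transcripts of Egfr differed between refed and fasted liver. The longer transcript stood at 0.890, 0.973 and 0.925 of the shorter in refed 5, 7 and 8, against 0.658, 0.621 and 0.669 in fasted 1, 3 and 4. All refed ratios lay above all fasted ones. In a fit of this ratio, on the log2(RPKM + 1) scale, over the 1087 genes whose leading 2 transcripts differed in length by at least 200 bases, the Egfr difference was 0.51 ± 0.05 SE (limma adjusted p = 0.044), at the 99.9th percentile of those genes. That fit called 0.276% of the genes higher in refed liver, 3 in number, and 2 lower, around a median difference of 0.00. How many bases the transcripts of each pair share was not considered. The percentile therefore does not compare Egfr with pairs of like overlap. Without any single library the Egfr difference was 0.48 to 0.54 and the adjusted p was 0.074 to 0.17, so that the call needed all 6 libraries. For Lifr the longer transcript stood at 0.516, 0.493 and 0.443 of the shorter in refed 5, 7 and 8, against 0.408, 0.387 and 0.394 in fasted 1, 3 and 4. These groups did not overlap either, but the difference of 0.28 ± 0.06 SE did not pass (limma adjusted p = 0.16). It nevertheless stood at the 99.4th percentile of the 1087 genes. Ratios with refed libraries wholly above fasted ones were found in 7.91% of the 1087 genes. This comparison was added after the transcript values had been seen.

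**Figure D3:**
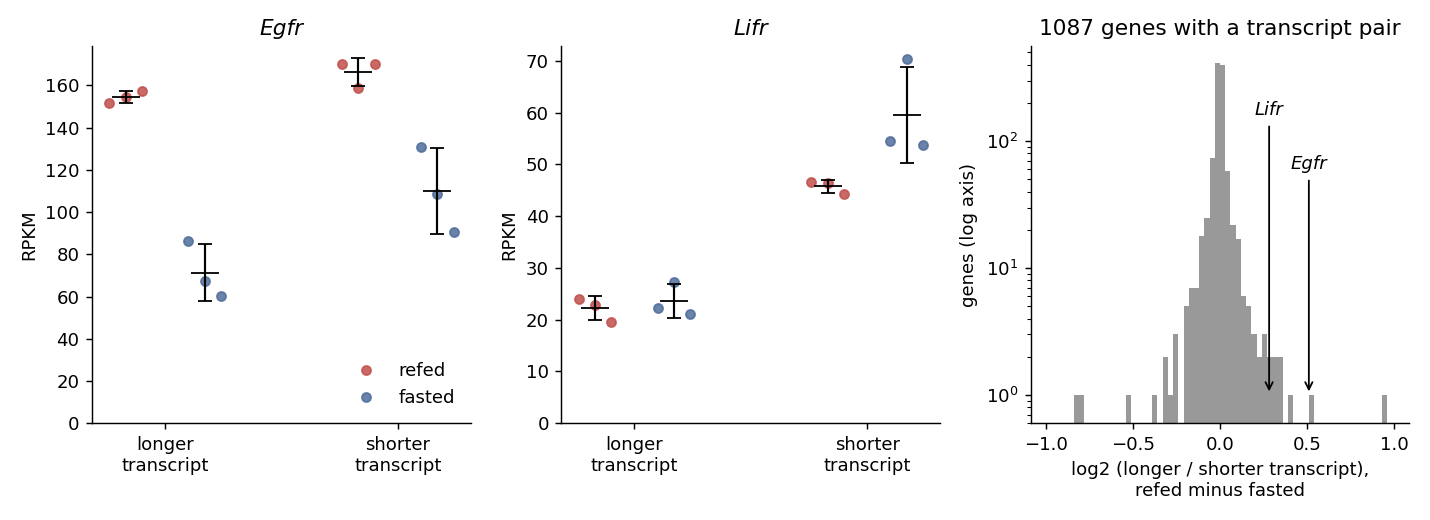
Left and middle, RPKM of the longer and the shorter transcript of Egfr and Lifr in each library, with mean and SD over 3 libraries, refed left of fasted. Right, the difference between refed and fasted liver in the log2 ratio of longer to shorter transcript for 1087 genes, with a log axis for the number of genes and arrows at Lifr (0.28) and Egfr (0.51), both on the right-hand side of a distribution centred at 0.00.

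The promoters of Met and Klb are shown because both genes fell in refed liver, and that of Egfr because it rose. The 250 bases before the RefSeq start (GRCm38.p6, plus strand) were searched on both strands for GGGCGG (the GC box), CACGTG (an E box), GTAAACA (a FOXO element), TGACGTCA (the cyclic AMP response element), TATAAA and TTCNNNGAA (a STAT element). Of 32851 such windows of mouse genes, 32.7% held the GC box, 6.02% the E box, 3.17% the FOXO element, 1.55% the cyclic AMP response element, 12.4% TATAAA and 7.02% the STAT element. Capitals mark every match. RefSeq promoters were matched for 7 of the 8 genes, all but Erbb3.
Egfr, chr11:16751953-16752202: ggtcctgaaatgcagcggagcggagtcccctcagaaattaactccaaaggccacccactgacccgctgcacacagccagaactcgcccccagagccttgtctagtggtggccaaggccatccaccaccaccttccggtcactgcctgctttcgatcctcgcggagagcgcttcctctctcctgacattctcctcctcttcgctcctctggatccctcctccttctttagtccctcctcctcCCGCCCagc
Met, chr6:17463707-17463956: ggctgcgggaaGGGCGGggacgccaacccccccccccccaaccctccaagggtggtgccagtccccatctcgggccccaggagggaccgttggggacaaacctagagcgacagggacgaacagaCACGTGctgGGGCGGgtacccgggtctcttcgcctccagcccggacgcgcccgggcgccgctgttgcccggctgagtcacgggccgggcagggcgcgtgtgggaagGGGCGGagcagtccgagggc
Klb, chr5:65348161-65348410: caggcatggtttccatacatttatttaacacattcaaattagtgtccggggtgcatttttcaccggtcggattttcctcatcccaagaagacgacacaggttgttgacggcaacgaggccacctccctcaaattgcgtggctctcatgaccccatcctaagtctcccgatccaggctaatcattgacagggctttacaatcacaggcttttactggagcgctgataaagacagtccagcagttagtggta

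The Egfr window held 1 GC box, which begins 9 bases before the start. The Met window held 3 GC boxes and an E box that begins 126 bases before the start. The GC content was 60.8% for Egfr, 74.0% for Met and 48.0% for Klb, beside a median of 52.4% over all windows. The window of Klb held none of these motifs. Of the 2 windows of Errfi1, 1 held 3 GC boxes, the cyclic AMP response element and TATAAA. Lifr, also called lower by its shorter transcript, has 2 windows that are not shown. Of these, 1 held 2 GC boxes at a GC content of 82.4%, and the other, at 50.8%, held none of these motifs. A match is a description of the letters and not a binding site.

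Of 27 ligand genes listed, 9 were measured, and 2 rose in refed liver, 1 fell and 6 did not pass, 33.3% called. Fgf1, an acidic FGF that binds all FGF receptors, had 16.3, 14.8 and 17.4 RPKM in refed 5, 7 and 8, against 29.6, 35.7 and 41.1 RPKM in fasted 1, 3 and 4 (log2 fold change -1.08 ± 0.13 SE, limma adjusted p = 0.00047). Btc, betacellulin, a ligand of EGFR, had 1.42 to 1.5 RPKM in refed and 0.378 to 0.537 RPKM in fasted liver. It reached the table's minimum of 1 RPKM only in refed libraries and thus had to differ to be called, and without it 1 ligand rose. Mst1, which encodes the HGF-like protein MSP, a ligand of the MET relative RON, was 1.34-fold higher at 116 RPKM in refed against 87.1 RPKM in fasted liver. Hgf had 1.13 to 1.90 RPKM in refed and 0.985 to 1.42 RPKM in fasted liver (adjusted p = 0.44), and Fgf21, the fasting hormone that uses beta-klotho, had 4.89 to 6.73 RPKM in refed and 3.46 to 15.3 RPKM in fasted liver (adjusted p = 0.43). Tgfa, another ligand of EGFR, had 5.07 to 5.67 RPKM in refed and 5.55 to 6.52 RPKM in fasted liver (adjusted p = 0.23). Egf was not analysed here.

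Among 12 measured genes of other receptors and coreceptors of these families, 2 rose in refed liver, 3 fell and 7 did not pass, 41.7% called. Il6ra, the interleukin 6 receptor, which pairs with the same subunit as LIFR, had 6.98, 6.93 and 7.22 RPKM in refed 5, 7 and 8, against 18.95, 25.4 and 19.8 RPKM in fasted 1, 3 and 4 (log2 fold change -1.47 ± 0.11 SE, limma adjusted p = 7.5e-05). Fgfr3, another FGF receptor, was higher, with 12.7, 20 and 12.7 RPKM in refed 5, 7 and 8, against 5.87, 5.05 and 6.56 RPKM in fasted 1, 3 and 4 (1.21 ± 0.18, adjusted p = 0.0013). Its groups did not overlap, and refed 7 lay above every library of Fgfr4. Il11ra1, the interleukin 11 receptor, was 1.78-fold higher, and Sdc4, a heparan sulfate proteoglycan that binds growth factors, was lower at 116 RPKM in refed against 192 RPKM in fasted liver (-0.73 ± 0.08, adjusted p = 0.00031). Fgfr1 had 1.42 to 1.54 RPKM in refed and 1.24 to 2.43 RPKM in fasted liver (adjusted p = 0.83), and Fgfr2 had 5.04 to 5.77 RPKM in refed and 6.11 to 6.58 RPKM in fasted liver (adjusted p = 0.11). Erbb4 was not analysed here.

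Genes that process ligands and receptors were measured for 8 of 10, with 2 higher, 1 lower and 5 not passing, 37.5% called, and with 1 higher and 1 lower under each of the 3 other scalings. The HGF activator gene Hgfac had 211, 236 and 177 RPKM in refed 5, 7 and 8, against 111, 107 and 111 RPKM in fasted 1, 3 and 4 (log2 fold change 0.90 ± 0.11 SE, limma adjusted p = 0.00064). Hpn, the membrane protease hepsin, which can also activate HGF, was lower at 199 RPKM in refed against 270 RPKM in fasted liver (-0.44 ± 0.09, adjusted p = 0.0071). Rhbdf2, a partner of the sheddase ADAM17, was higher (0.60 ± 0.18, adjusted p = 0.026) and lost its call under all 3 other scalings and without fasted 3, fasted 4, refed 5 or refed 8.

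Among 23 measured adaptor and Ras pathway genes, 8 rose, 2 fell and 13 did not pass, 43.5% called beside the 42.2% over all genes. The split turned under the other scalings, with 4 higher and 6 lower after centring and after quantile normalization, and 3 higher and 6 lower with TMM. Plcg1, the phospholipase recruited to activated receptors, was lower, with 8.11, 7.65 and 8.41 RPKM in refed 5, 7 and 8, against 10.99, 10.3 and 10.8 RPKM in fasted 1, 3 and 4 (log2 fold change -0.37 ± 0.08 SE, limma adjusted p = 0.0067). These groups did not overlap. The adaptor gene Crkl was higher (0.35 ± 0.09, adjusted p = 0.019), a call that was lost under all 3 other scalings and without fasted 4, refed 5 or refed 8. Without fasted 4 or without refed 8, 6 genes of this list were called.

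Of 22 measured genes that restrain receptors, 5 rose, 3 fell and 14 did not pass, 36.4% called, and under each of the 3 other scalings 4 rose and 4 fell. Cd9, a tetraspanin that associates with growth factor precursors, had 19.6, 29.8 and 31.4 RPKM in refed 5, 7 and 8, against 13.9, 8.39 and 16.4 RPKM in fasted 1, 3 and 4 (log2 fold change 1.02 ± 0.25 SE, limma adjusted p = 0.013). Lrig1, a transmembrane protein that promotes ErbB receptor degradation, was 1.58-fold higher (0.57 ± 0.09, adjusted p = 0.0023). Cblc, a ubiquitin ligase gene whose family tags activated receptors, was lower (-0.61 ± 0.12, adjusted p = 0.0057). Its relative Cblb had 0.650 to 0.822 RPKM in refed and 1.61 to 2.33 RPKM in fasted liver, and met the minimum of 1 RPKM only in fasted libraries. Socs5, a cytokine signalling inhibitor named here after its values were seen, met it only in refed libraries, and without both 4 rose and 2 fell. Without refed 5 or without refed 8, 5 genes of this list were called.

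Transcripts that respond to ERK signalling were measured for 16 of 20, and 7 rose, none fell and 9 did not pass, 43.8% called beside 42.2% over all genes. With each of the 3 other scalings 5 rose and none fell. At an unadjusted limma p under 0.05, 10 of the 16 were higher and 0 lower, beside 31.8% higher and 19% lower over all genes tested. Of those 10, Fos, Dusp4, Etv5 and Ier3 reached the table's minimum of 1 RPKM only in refed libraries. These genes entered the table because they were high there, so that they are no support for the unadjusted count. The median log2 fold change of the 16 was 0.55, beside 0.10 over all genes tested, and it includes these genes. Jun had 18.6, 10.1 and 16.6 RPKM in refed 5, 7 and 8, against 2.35, 4.71 and 4.62 RPKM in fasted 1, 3 and 4 (log2 fold change 1.72 ± 0.26 SE, limma adjusted p = 0.0017). Dusp6, the ERK phosphatase, was 1.96-fold higher (0.89 ± 0.23, adjusted p = 0.018) and was not called without refed 8. Egr1 had 19.4, 7.18 and 9.09 RPKM in refed 5, 7 and 8, against 4.57, 6.82 and 4.25 RPKM in fasted 1, 3 and 4 (0.96 ± 0.32, adjusted p = 0.042), with refed 5 far above the rest, and it lost its call under all 3 other scalings and without fasted 1, fasted 4, refed 5 or refed 8. Ier3, an early growth factor response gene, had 1.03 to 1.89 RPKM in refed and 0.260 to 0.434 RPKM in fasted liver. It is 1 of the 7, and entered the table only through the refed libraries, so that its call is no support for the count, which is 6 without it. Without refed 8, 4 genes of this list were called. Many of these genes also respond to other signals.

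Of 6 bile acid genes that respond to FGF15 or FGF21, 1 fell, 1 rose and 4 did not pass, 33.3% called. Nr0b2, the repressor SHP, had 7.77, 5.62 and 9.68 RPKM in refed 5, 7 and 8, against 19.2, 24.8 and 33.5 RPKM in fasted 1, 3 and 4 (log2 fold change -1.62 ± 0.22 SE, limma adjusted p = 0.0011). Cyp7a1, the rate-limiting enzyme of bile acid synthesis, had 31.1, 22.4 and 9.43 RPKM in refed 5, 7 and 8, against 27.1, 31.9 and 8.81 RPKM in fasted 1, 3 and 4. It varied more within each group than between them (-0.07 ± 0.52, adjusted p = 0.93). The bile acid transporter gene Slc10a1 was higher (0.37 ± 0.12, adjusted p = 0.037), but was not called with centring or TMM, nor without fasted 1, fasted 3, fasted 4, refed 5 or refed 7, and 1 gene of the list was called in each of those settings.

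**Figure D4:**
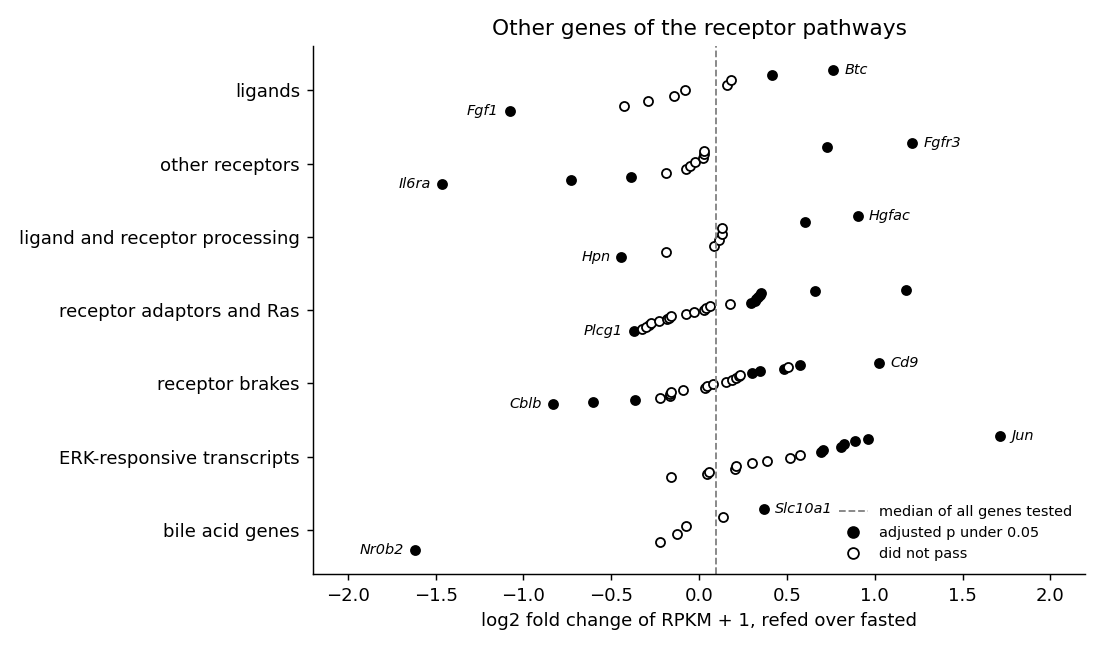
Log2 fold changes of RPKM + 1 in refed over fasted liver for the measured genes of 7 lists around these receptors, 1 point per gene. Filled points passed an adjusted p of 0.05, the dashed line is the median of all genes tested at 0.10, and some of the called genes farthest to each side are named. The called ERK-responsive genes, 7 in number, all lie to the right of the line, and with RPKM as deposited the other 6 lists hold called genes on both sides.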

How the data were processed

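The 6 mouse liver libraries were made with an mRNA-Seq kit after extraction of total RNA, per the labels' protocols, and groups and replicate numbers were taken from the titles. No label ties a library to its own mouse, and the p-values therefore cover only the spread between libraries, which may be technical. STAR 2.6.0c, FastQC, DESeq2 and mm9 are named without roles in the submitters' processing notes.

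The authors deposited linear RPKM for 14659 RefSeq transcripts, each reaching 1 RPKM in at least 1 library, with their ratios of group means, p-values and −log10 p-values, which were not used. A second deposited table lists raw read counts, log2 fold changes and false discovery rate q-values for genes called with DESeq at 0.05, per the file headers. Since only called genes have counts, no count test was run. Replicates differed beyond sampling noise (chi-square per degree of freedom 59.1 to 239.6).

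Rows were joined by gene symbol, ignoring case, 54 rows without one were left out, and each gene kept its transcript of highest mean. The 10903 genes whose mean reached 0.5 RPKM were tested as log2(RPKM + 1), refed over fasted, with limma 3.58.1 in R 4.3.3 (moderated, trended variances; no trend for transcript ratios), two-sided, with Benjamini-Hochberg adjustment, after a check on simulated data. Errors are SD of means and SE of log2 fold changes, and folds are ratios of mean RPKM. A pseudocount understates changes of low genes. Whether counting used strand is not stated, and overlapping genes are uncertain. Transcript lengths and coding spans came from GENCODE M21 (GRCm38) by accession. TMM factors came from edgeR 4.0.16. Named beyond the 7 genes are, per list, up to 4 called genes with the largest change and no overlap, and partners fixed by name; Tgfa was added after its values were seen, and 2 genes that this rule names are not reported here. The genes and lists were chosen with earlier results of these data known.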

Additional observations from a re-analysis of the deposited data

How the results depend on the processing

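Egfr, Erbb3, Met and Klb kept their direction and their call, and Errfi1 stayed without one, under all 16 alternatives, which covered scaling, pseudocount, filter, variance model, choice of transcript and leaving out each library. Lifr lost its call with transcripts summed (log2 fold change -0.28, adjusted p = 0.086) and with the longer transcript (-0.080, adjusted p = 0.62), and ranged from -0.43 to -0.24 with 1 library left out. Fgfr4 gained a call with centring (-0.41), quantile normalization (-0.42) and TMM (-0.43), and ranged from -0.45 to -0.22 with 1 library left out. The longer to shorter transcript difference of Egfr ranged from 0.48 to 0.54 with 1 library left out, and its call was lost each time; the cause beyond fewer samples was not tested. Bile acid genes gave 1 call with centring and 1 with TMM, and 1 to 2 with a library left out. With a library left out, calls numbered 6 to 12 among adaptors, 5 to 7 among receptor brakes and 4 to 8 among ERK-responsive genes. No log2 fold change or ratio of the 7 genes turned its sign, but the majority of calls turned from higher to lower in refed liver under the 3 other scalings, for all genes (2186 higher and 2267 lower with centring) and for adaptors (4 and 6). Leaving out 1 library reduced all calls to between 3444 and 4204. Ratios with Erbb2 could not be computed. No paired analysis was possible because the groups share no replicate number. Full depth is unknown, and the lowest-level gene, Klb, rested on 867 to 2607 reads per library.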

Other observations

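Genes whose profile over the 6 libraries lay closest to a called receptor gene were found by Euclidean distance between log2(RPKM + 1) values, each centred on its own mean. This is a description of likeness over 6 libraries in 2 groups and says nothing of shared control. For Klb the closest was Cps1, the mitochondrial carbamoyl phosphate synthetase of the urea cycle, at a distance of 0.223 and with means of 559 RPKM in refed and 926.6 RPKM in fasted liver. For Erbb3 they were Papss2, which makes the sulfate donor PAPS, at 0.197 (21.0 RPKM in refed and 52.9 RPKM in fasted liver), then Pptc7, a mitochondrial phosphatase, at 0.226 and Marchf6, a ubiquitin ligase of the endoplasmic reticulum, at 0.232. For Lifr they were Inpp4a at 0.0822, Tulp4 at 0.133 and the lysosomal membrane protein gene Lamp2 at 0.144. For Met they were Map3k21, Sgtb and Sgsm2 at 0.116 to 0.13, all below 3 RPKM in both groups. At such levels the pseudocount of 1 compresses changes, so that a small distance does not mean a like fold. Map3k21 had means of 0.594 RPKM in refed and 1.55 RPKM in fasted liver, and Sgtb 0.566 and 1.47 RPKM. For Egfr, by its shorter transcript, they were 3110040N11Rik, Twf2 and Camkmt at 0.0944 to 0.152. Of these, Twf2 and Camkmt also had means below 3 RPKM in both groups. After Cps1, Klb was followed by Mcc at 0.321 and Csrnp1 at 0.367.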
